A study of Mus musculus with 40 samples.

Results

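The genes described here are the Wnt ligands, their Frizzled and Lrp receptors, the secreted antagonists of the Sfrp and Dkk families, and a short set of cytoplasmic and nuclear components of the pathway. Members were all gene probes whose symbol starts with Wnt, Fzd, Sfrp or Dkk followed by a digit, together with Axin1, Axin2, Lrp5, Lrp6, Lef1, Tcf7, Tcf7l1, Tcf7l2, Ctnnb1 and Apc. Of 47 symbols that this rule can name, 40 were found among 72637 named genes and unnamed probes of the whole series. They were 15 Wnt ligands, 10 receptors, 8 secreted antagonists and 7 cytoplasmic or nuclear components. No probe was named here for Wnt1, Wnt4, Wnt8b, Wnt9a, Fzd4, Fzd5 or Axin1. In all, 37 members were present on all 3 array designs. Apc and Fzd9 were not found on the arrays of the later time points, and Lrp6 was not found on those of the earlier time points.

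Expression was measured in mouse embryonic stem (ES) cells on 40 two-colour arrays, with each sample in Cy3 against a pooled reference RNA of mouse cell lines in Cy5, so each value is log2(Cy3/Cy5). ZHBTc4 cells (strain 129/Ola) carry a Pou5f1 transgene that tetracycline (Tet) shuts off and, as known of this line, lack working endogenous Pou5f1 alleles, at 0 hr too. They were measured before Tet (0 hr) and daily from 24 hr to 120 hr of Tet with 3 arrays each (late arrays, 18 in all). In a separate experiment they were measured before Tet and after 3, 6 or 12 hr or 1 day (24 hr) with 2 arrays each (early arrays, 10 in all). Neither experiment has arrays without Tet after 0 hr. Loss of Pou5f1, Tet itself and time in culture therefore cannot be told apart. The other 12 arrays hold 4 lines, each grown for 3 days in complete medium with LIF, in medium without LIF, and in complete medium with 1 µM retinoic acid (RA), with 1 array per line and medium. The lines were the clone labelled episomal, which carries Nanog on an episomal vector, with its parental line MG1.19, which expresses polyoma large T antigen, and the clone labelled Nanog/EF1#6, called the integrated clone here after the study's methods, which carries Nanog in a chromosomal vector, with a parental line labelled ES 129.3 (strains 129Sv and 129SvEv-Tac in the labels). Each transgene was represented by 1 clone, and the parental arrays were taken over from an earlier experiment. Whether replicate arrays came from separate cultures is not given, so the p-values measure only the spread between these arrays, which may be technical. The cells of the early arrays and of the 4 lines had been passaged off feeders. In bulk RNA fewer cells of a type and less RNA per cell cannot be told apart.

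Wnt proteins are secreted lipid-modified ligands that bind Frizzled receptors. Together with the co-receptors LRP5 and LRP6 they inhibit the complex of APC, AXIN and kinases that otherwise marks beta-catenin (Ctnnb1) for destruction, and the stabilised beta-catenin then enters the nucleus and binds the factors of the Tcf7/Lef1 family. SFRP proteins resemble the ligand-binding part of Frizzled and bind Wnts outside the cell, whereas DKK1 binds the LRP co-receptors. In ES cells the pathway is known for supporting self-renewal, in part by relieving repression by TCF7L1, while Wnt3 and Wnt3a are known for their part in the formation of the primitive streak and mesoderm.

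The results below turn on a few probes, 60 bases long, of which the first 30 bases are shown to identify the stretch each one reads. For the first 5 genes the same probe stands on all 3 designs. For Fzd1, Fzd3, Fzd6 and Lrp5 both probes of the gene are shown because they differed in their response, first the brighter probe on the arrays of the media experiment and then the other.
Dkk1: tatctaatatatgctacgaaaatcctttat
Sfrp1: ttaaaatagtcattccggagagtcagggaa
Sfrp2: tcggcatctaagtcttcaaacatttcgttg
Fzd2: tcacagtctacatgatcaaatacctcatga
Wnt3a: cctggaactttgcgttcgcgcttgtaactt
Fzd1, brighter: ggatgaagaagaggagaaaagcagtcctcc
Fzd1, other: ctacatcgctggctttctgttggaggaccg
Fzd3, brighter: ctgtactgtcacggtagctgggtgtgctct
Fzd3, other: tactccaattataagaaaatcaagaggaac
Fzd6, brighter: taagcctgcaaaagaaaatgtgcgaagggc
Fzd6, other: cttaccaggcaaatccaaaagctcgaccag
Lrp5, brighter: acctcggccgtccacccggccctgctgcct
Lrp5, other: ggtttttaacaagtgagaaatgtgagcggt
Of the members, 36 had at least 1 probe sequence in common to all 3 designs. The Sfrp1 probe and the brighter Fzd3 probe took their names from the study's tables, whereas the other probes shown were named through accessions.

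Replicate arrays correlated at r = 0.96 to 0.99 across probes on the late arrays and at r = 0.96 to 0.98 on the early arrays. Pou5f1, the gene that Tet shuts off, fell by 2.07 to 2.18 on the log2 scale at every later time point. It was above the negative control limit on 2 of 3 arrays at 24 hr and 1 of 3 at 48 hr, so these falls are in part bounds. On the early arrays it had 2 probes. The probe of the same sequence as the late one fell by 2.79 at 24 hr (adjusted p = 0.00125, limma), and the brighter one fell by 0.55 (adjusted p = 0.0285). LIF withdrawal lowered Socs3, a target of LIF signalling, by 2.62, and RA raised Cyp26a1, which degrades retinoic acid, by 2.65. The Nanog probe read 0.75 higher in the integrated clone than in its parental line and 0.57 lower in the episomal clone, as means of 3 media. Whether this probe reads the transgenes is not given, so it checks neither label. Of 12 trophoblast markers measured on the late arrays, 9 rose and none fell, and 7 of 8 ES cell markers fell. The mean log2 ratio of the fibroblast markers, a sign of feeder cells, lay between -2.49 and -2.20 over all late arrays, and 1 of 8, Pdgfra, rose (0.85). Of 8 primitive endoderm markers 3 rose (Lamb1 by 1.83, Gata6 by 0.89 and Dab2 by 0.81), as did 1 of 4 neural markers (Tubb3). Their part in the results was not tested.

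Over 5 days of Tet, which shuts off Pou5f1, the antagonist Dkk1 rose strongly and the antagonist Sfrp1 fell. Changes of receptors and of nuclear components were smaller. A gene was called where the adjusted p was under 0.05 (over any time, that of a joint test of all times) and the change, the largest over times, at least 1.5-fold, and each gene was read from its brightest probe. Over any time against 0 hr, 10 of 38 members were called, 6 higher and 4 lower, against 24.5% of 20701 genes and unnamed probes. At 120 hr, 8 of 38 members were called, 5 higher and 3 lower, against 20.6% of all. Both shares of members lie near these backgrounds. An adjusted p given with a change is that of the named time. The median of the members' largest changes was 0.13, against -0.02 over all genes tested. By family, 4 of 8 secreted antagonists, 3 of 9 receptors, 2 of 6 cytoplasmic or nuclear components and 1 of 15 ligands were called.

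Dkk1, the secreted inhibitor of the LRP5 and LRP6 co-receptors, rose more than any other member on the late arrays. Before Tet its log2 ratio was -0.38, 0.02 and 0.01. After 24 hr it was 0.69, 0.84 and 0.70, and after 48 hr 2.85, 3.18 and 3.08. The 3 arrays of 72 hr lay between 2.50 and 2.79 and those of 96 hr between 2.70 and 2.74. The arrays of 120 hr read 2.18, 2.50 and 2.48. Every array with Tet was thus above every array at 0 hr, the highest values were at 48 hr, and the level at 120 hr was lower than at 48 hr. The change was 3.15 ± 0.11 (SE, n = 3) at 48 hr with an adjusted p of 1.87e-12 (limma) and 2.51 ± 0.11 at 120 hr. At 0 hr the Cy3 signal of Dkk1 was not above the 95th percentile of the negative control spots on any array, so these fitted changes start from a level at background. Against that limit Dkk1 was at least 1.48-fold higher at 24 hr, at least 9.52-fold higher at 48 hr and at least 5.14-fold higher at 120 hr. The bound takes, on each dim array, the higher of the probe's own signal and that percentile.

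Sfrp1, which binds Wnt ligands outside the cell, showed the opposite course and completed its fall within the first day. Before Tet its log2 ratio was 1.69, 1.496 and 1.94, and 24 hr later it was 0.17, 0.23 and 0.61. The 12 later arrays lay between 0.18 and 0.37. No array with Tet reached the 0 hr arrays. The change was -1.37 ± 0.10 (SE, n = 3) at 24 hr (adjusted p = 3.01e-08, limma) and -1.48 ± 0.10 at 96 hr, the time of its largest change. Sfrp2, of the same family, fell later. It read -0.69, -0.68 and -0.39 at 0 hr, lay between -0.70 and -0.57 at 24 hr and between -1.11 and -1.08 at 48 hr, and reached -1.24, -1.30 and -1.32 at 120 hr, a change of -0.70 ± 0.07 (SE, n = 3, adjusted p = 3.98e-07, limma). Sfrp4 fell by 0.89 at 48 hr, but its 3 arrays at that time spread from -0.97 to -0.23, the lowest of them at background, and at 120 hr the fall was 0.68 (adjusted p = 0.0012, limma). Dkk2, Dkk3, Dkk4 and Sfrp5 were not called. With the authors' normalized values or with the Cy3 signal alone Sfrp2 changed by -0.43 and -0.46, under the 1.5-fold threshold.

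Among the receptors, Fzd2 and Lrp5 rose and Fzd7 fell. Fzd2 read -0.23, -0.39 and -0.59 at 0 hr and lay between 0.01 and 0.35 on all 15 later arrays, so the groups did not overlap at any time. Its largest change was 0.70 ± 0.07 (SE, n = 3) at 96 hr (adjusted p = 5.77e-07, limma). Lrp5, a co-receptor, was -0.75, -0.70 and -0.73 at 0 hr and 0.22, 0.30 and 0.04 at 120 hr, a change of 0.91 ± 0.10 (SE, n = 3), and its rise passed the threshold from 96 hr. At 0 hr the Lrp5 signal was above the negative control limit on 1 of 3 arrays, so this change starts close to background. The late arrays hold only the dimmer of the 2 Lrp5 probes shown above. Fzd7, a receptor abundant in ES cells, read 0.87, 0.71 and 1.08 at 0 hr and remained between 0.62 and 0.80 at 24 and 48 hr. It then dropped to 0.07, 0.12 and 0.06 at 72 hr, a change of -0.80 ± 0.07 (SE, n = 3, adjusted p = 8.4e-08, limma), and read 0.32, 0.35 and 0.30 at 120 hr. With the authors' normalized values the change at 72 hr was -0.57 and with no background subtraction -0.45, under the 1.5-fold threshold. Fzd1, Fzd3, Fzd6, Fzd8, Fzd10 and Lrp6 were not called. For Fzd1 and Fzd6 these arrays hold only the dimmer probe.

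Wnt6 was the one ligand of 15 that passed on the late arrays, and only just. It read 0.40, 0.74 and 0.77 at 0 hr and averaged 1.23 at 48 hr, with every array above those at 0 hr, a change of 0.59 ± 0.09 (SE, n = 3, adjusted p = 5.12e-05, limma). Without the first 0 hr array the change was 0.47 and without the third 48 hr array 0.58, under the 1.5-fold threshold. Wnt7b (0.57 at 120 hr) and Wnt8a (0.51 at 48 hr) were not called, with adjusted p = 0.00527 and 7.05e-06 for any change over time. Neither was above the negative control limit on any 0 hr array, so their changes start from background: Wnt7b was at least 1.3-fold higher at 120 hr and Wnt8a at least 1.13-fold higher at 48 hr. Wnt3, Wnt5b, Wnt7a and Wnt10a were above the negative control limit on none of the 18 late arrays, Wnt2 and Wnt3a on 1 each, so their levels are bounds there, and a fall, or a rise that stays below the limit, could not be detected. The same held for Dkk4, Lrp6 and Lef1.

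Of the cytoplasmic and nuclear members, Ctnnb1 and Tcf7l1 rose late. Ctnnb1, which encodes beta-catenin, read 0.16, 0.23 and 0.61 at 0 hr and 0.73, 1.39 and 1.27 at 120 hr, a change of 0.80 ± 0.21 (SE, n = 3, adjusted p = 0.00426, limma). Tcf7l1, the Tcf factor known as a repressor in ES cells, read 2.16, 2.22 and 2.27 at 0 hr, lay lower at 24 hr (1.61 to 1.97) and reached 3.25, 2.74 and 2.86 at 120 hr. That is a change of 0.73 ± 0.14 (SE, n = 3, adjusted p = 0.000242, limma), and without the first 120 hr array it was 0.58, just under the 1.5-fold threshold. Axin2, a component of the destruction complex that is also widely used as a target of beta-catenin signalling, lay between 0.12 and 0.51 on all 18 arrays and its largest change was -0.07. Tcf7 and Tcf7l2 were not called.

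**Figure D1:**
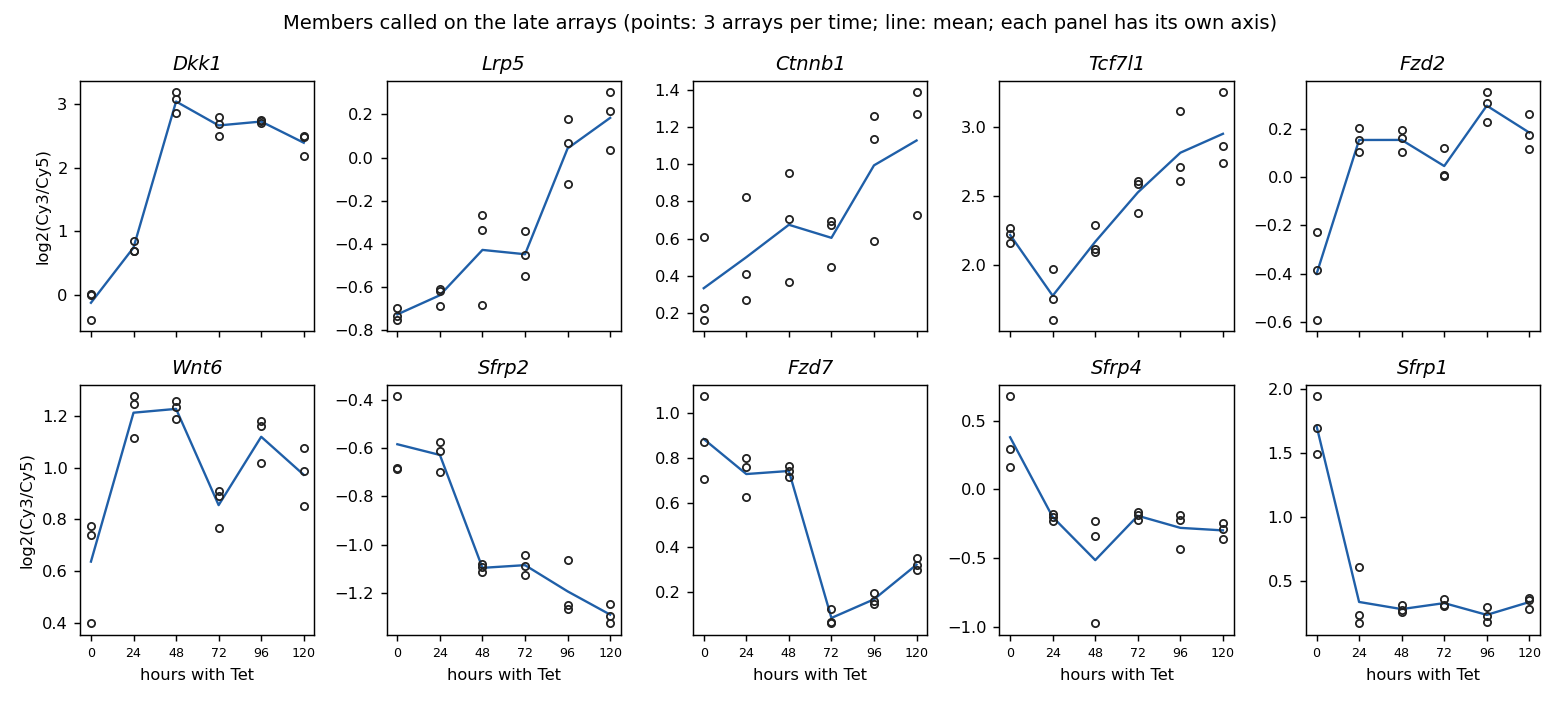
Log2(Cy3/Cy5) of the 10 members called on the late arrays against hours of Tet, with 1 point per array and a line through the means of 3 arrays; each panel has its own vertical axis. Dkk1 peaks at 48 hr (2.85 to 3.18), Sfrp1 is down by 24 hr, and Fzd7, Sfrp2, Lrp5 and Tcf7l1 move later.

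The changes sat in the sample channel. At 48 hr the Cy3 signal of Dkk1 rose by 3.34 on the log2 scale and the Cy5 reference signal moved by 0.19. For Sfrp1 at 24 hr the Cy3 signal fell by 1.53 and the reference signal by 0.16. For the other 8 members called on these arrays the reference signal moved by at most 0.10 in either direction at the time of the largest change.

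Other genes of the pathway were read from lists of 62 genes, 48 of which were found in the series. Their counts on the late arrays stand against the 24.5% of all genes and unnamed probes called there. On the late arrays 1 of 14 secreted modulators and genes of ligand secretion rose and 3 fell. The one that rose was Wls, which carries Wnts to the cell surface (0.66 at 120 hr). Those that fell were Lgr4, a receptor of R-spondins (-1.27 at 48 hr), Rspo1, an R-spondin (-0.80 at 120 hr), and Apcdd1, a membrane inhibitor of Wnt signalling (-0.76 at 72 hr). Of 7 nuclear components, 2 rose and 3 fell: the co-repressor Tle3 rose by 1.32 while Tle4 fell by 2.05, the beta-catenin cofactor Bcl9l rose by 1.62, and the beta-catenin inhibitor Ctnnbip1 fell by 0.96. Of 9 cytoplasmic components, Gsk3b (0.65), a kinase of the destruction complex, and Dact1 (0.94) rose and none fell. Among 6 further receptors and planar polarity genes, Ryk rose by 0.91 and Celsr1 and Vangl2 fell by 0.91 and 0.71. Of 8 known targets of the pathway 1 was called, Ccnd1, which encodes cyclin D1 (-0.76 at 48 hr).

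Promoter windows from RefSeq (build GRCm38.p6), cut to the 250 bases before the annotated start, were available for 25 members in 34 windows. They were searched on both strands for CTTTGA, the core of the sequence bound by the Tcf7/Lef1 family, and for the octamer ATGCAAAT bound by POU factors. CTTTGA was found in 5 of the 34 windows, in Dkk1, Fzd1, Lef1, Wnt11 and Wnt5b, and in 13.8% of all 32851 windows. The octamer was found in 1, that of Sfrp2, and in 1.6% of all windows. Neither motif overlaps the other, and the retinoic acid element, AGGTCA repeated after 5 bases of any kind, was found in no member and in 0.00913% of all windows. The windows of Dkk1, the member that rose most, and of Sfrp2 are printed with the matches in capitals. A match is a description of these letters and not of binding.
Dkk1, chr19:30549497-30549746, minus strand, with matches that begin 174 and 117 bases before the start: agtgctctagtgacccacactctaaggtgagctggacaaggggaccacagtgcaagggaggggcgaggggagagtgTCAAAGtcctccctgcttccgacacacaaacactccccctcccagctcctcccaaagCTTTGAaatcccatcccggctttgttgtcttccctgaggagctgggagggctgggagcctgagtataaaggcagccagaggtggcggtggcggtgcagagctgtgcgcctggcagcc
Sfrp2, chr3:83766071-83766320, plus strand, with a match that begins 47 bases before the start: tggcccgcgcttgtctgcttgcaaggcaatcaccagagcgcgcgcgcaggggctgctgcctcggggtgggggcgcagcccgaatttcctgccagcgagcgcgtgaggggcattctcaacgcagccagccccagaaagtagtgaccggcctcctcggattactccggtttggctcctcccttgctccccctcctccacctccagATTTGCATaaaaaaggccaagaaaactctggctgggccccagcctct

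In the first 24 hr, measured on the early arrays, Sfrp1 and Wnt3a were called lower. Over any time against 0 hr, 2 of 39 members were called, both lower, against 5.26% of 39001 genes and unnamed probes, so the share of members lay near the background. This count was 5 without the first and 1 without the second 24 hr array, 7 with the authors' normalized values and 6 with the Cy3 signal alone. The shares of all genes under these alternatives are not given here, so whether the members moved apart from them cannot be read. The second 24 hr array stood apart, with 6.77% of its probes not above the negative control limit, against 0.407% to 4.27% on the other 9 early arrays. Its part in the results was not tested beyond leaving it out. Before Tet Sfrp1 read 1.10 and 1.09, and after 3 hr 1.07 and 1.09. After 6 hr it read 0.76 and 0.72, after 12 hr 0.26 and 0.11, and after 24 hr 0.29 and 0.33. It was thus level at 3 hr, lower on both 6 hr arrays, and lowest at 12 and 24 hr. The change was -0.91 ± 0.09 (SE, n = 2) at 12 hr (adjusted p = 0.0024, limma) and -0.78 ± 0.09 at 24 hr, where the Cy3 signal of the second array was not above the negative control limit, so that the 24 hr change is in part a bound. Its Cy3 signal fell by 0.78 at 12 hr while the reference signal rose by 0.13. With the larger error variance that the study's methods use, the adjusted p at 12 hr was 0.806.

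Wnt3a, a ligand known from the primitive streak, was the other member called on the early arrays. It read 0.21 and 0.10 at 0 hr and -0.54 and -0.48 at 24 hr, a change of -0.66 ± 0.10 (SE, n = 2, adjusted p = 0.00292, limma). Here the Cy3 signal fell by 0.15 and the Cy5 reference signal rose by 0.52, so most of the change of this ratio lay in the reference channel. With the Cy3 signal alone the change was -0.17 (adjusted p = 0.474), and with the correction for bleaching of Cy5 that the methods describe it was -0.30 (adjusted p = 0.261). The other pathway lists gave 4 genes on these arrays, all at 24 hr, against the 5.26% of all given above. Of 15 secreted modulators Lgr4 fell by 1.21. Ror2 (a receptor of Wnt5a) rose by 0.65, 1 of 8 further receptors and planar polarity genes, Nkd1 (an inhibitor of the pathway, also 1 of the 8 known targets) by 0.82, 1 of 10 cytoplasmic components, and Bcl9l by 0.98, 1 of 7 nuclear components.

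Dkk1 began to rise within this window without reaching the 1.5-fold threshold. Before Tet it read 0.14 and 0.06, after 12 hr 0.21 and 0.20, and after 24 hr 0.64 and 0.69, a difference of 0.56 at 24 hr (adjusted p = 0.0104 over all times, limma). Axin2 lay between -0.32 and -0.04 on the 10 arrays. The ES cell markers averaged 3.17 to 3.33 at 0 hr and 2.54 to 2.56 at 24 hr, and the trophoblast markers 0.47 to 0.51 and 1.17 to 1.24, so both lists moved with these results. The primitive endoderm markers Gata6 (1.24) and Lamb1 (1.06) and the fibroblast marker Pdgfra (1.53) also rose, and the neural marker Pax6 fell by 0.74. Their part was not tested.

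**Figure D2:**
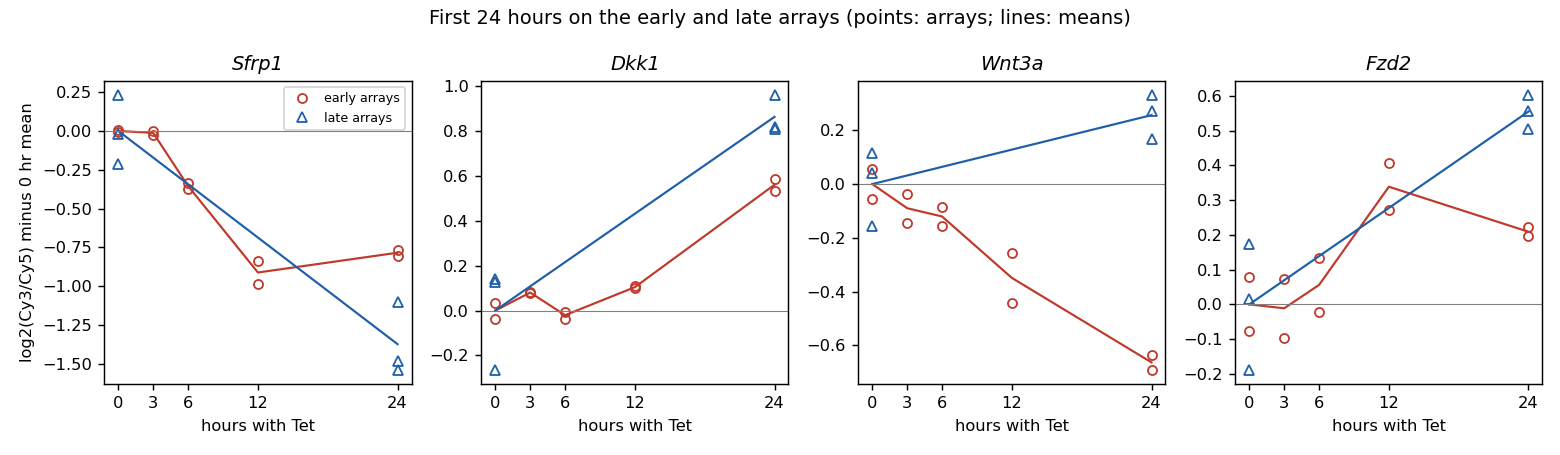
Log2(Cy3/Cy5) minus the mean of the 0 hr arrays of the same experiment against hours of Tet for Sfrp1, Dkk1, Wnt3a and Fzd2; circles are early arrays, triangles late arrays at 0 and 24 hr, and lines join means. Sfrp1 falls in both experiments, and Wnt3a changes by -0.66 on the early and by 0.26 on the late arrays. The late Wnt3a signal is at background on every 0 hr array, and its early change lies mostly in the Cy5 reference.

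The 24 hr changes of both experiments were compared for 36 members measured by probes of the same sequence. The difference passed for 2, Wnt3a and Wnt6, against 14.4% of 18868 genes and unnamed probes. Wnt3a changed by 0.26 on the late and by -0.66 on the early arrays, a difference of 0.92 ± 0.14 (SE; adjusted p = 0.00113, limma), and its late Cy3 signal was above the negative control limit on 1 array of 18. Wnt6 changed by 0.58 and by -0.04, a difference of 0.62 ± 0.18 (adjusted p = 0.0307, limma). Its Cy3 signal rose in both experiments, by 0.53 on the late and by 0.33 on the early arrays. The Cy5 reference signal of Wnt6 moved by -0.04 and by 0.37, so much of the difference lay in the reference channel. Leaving out the first 0 hr, the first or the second 24 hr late array, or the second 0 hr or the second 24 hr early array, took the adjusted p of Wnt6 to between 0.0555 and 0.136. Sfrp1 fell in both experiments, by 1.37 on the late and by 0.78 on the early arrays (1 of the 2 early arrays at background), and the difference of -0.59 did not pass (adjusted p = 0.0646). Dkk1 changed by 0.86 and by 0.56.

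In the 4 lines, withdrawal of LIF for 3 days was accompanied by higher Fzd2, Sfrp2, Wnt5b and Lef1 and by no lower member. These were 4 of 40 members called, against 1.02% of 37680 genes and unnamed probes. The median change of the members was 0.07, against 0.01 over all genes. All 4 calls lie close to the threshold. None of them passed with the error variance of the methods, with no background subtraction, or without the episomal clone, the integrated clone or MG1.19 (3 passed without ES 129.3), and with the correction for Cy5 bleaching 1 passed.

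Lef1, the nuclear partner of beta-catenin that is itself a known target of the pathway, was higher without LIF in each line. With LIF it read -0.27, -0.19, -0.23 and 0.20 in the episomal clone, the integrated clone, MG1.19 and ES 129.3. Without LIF it read 0.34, 0.55, 0.33 and 0.64 in the same order. The change of 0.59 ± 0.06 (SE, n = 4 lines) had an adjusted p of 0.00682 (limma) and was between 0.44 and 0.75 in each line. The LIF array of the episomal clone was not above the negative control limit, so its change starts from background. The highest of the LIF arrays was below the lowest of the arrays without LIF. In RA it read -0.22, -0.20 (also at background), -0.09 and 0.08, a change of 0.02 against LIF. The difference of RA and no LIF was -0.57, which met the test (adjusted p = 0.000807, limma) but not the fold.

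Fzd2 changed by 1.48, 1.15, 1.08 and 0.50 in the same order of lines on withdrawal of LIF, a mean of 1.05 ± 0.21 (SE, n = 4 lines, adjusted p = 0.049, limma). Without LIF Fzd2 read 0.39, -0.07, 0.85 and 0.63. Sfrp2 read -1.01, -1.17, -0.27 and 0.03 with LIF and 0.58, -0.00, 0.56 and 0.30 without, a change of 0.96 ± 0.18 (SE, n = 4 lines, adjusted p = 0.0428, limma). Wnt5b, a ligand mostly linked to signalling that does not use beta-catenin, read -0.02, -0.01, 0.10 and 0.51 with LIF and 0.85, 0.24, 0.89 and 1.42 without. It rose by 0.71 ± 0.14 (SE, n = 4 lines, adjusted p = 0.0464, limma), least in the integrated clone (0.26). All 4 lines moved in the same direction for each of these genes. For Fzd2 and Sfrp2 the parental line ES 129.3 had the smallest change and the highest level with LIF.

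The primitive streak ligands Wnt3 and Wnt8a had large but uneven differences that did not pass. Wnt3 read 0.07, 0.16, 0.61 and 2.09 with LIF, 1.58, 1.09, 2.50 and 2.79 without, and 1.22, 0.26, 1.26 and 1.22 with RA, in the order of lines used above. It was higher without LIF by 1.52, 0.93, 1.89 and 0.70 in the episomal clone, the integrated clone, MG1.19 and ES 129.3 (mean 1.26 ± 0.28 SE, n = 4 lines, adjusted p = 0.0664, limma). Wnt8a was higher by 0.46, 0.98, 1.44 and 0.98 (mean 0.96, adjusted p = 0.131). Both were higher in all 4 lines. The mean of 3 mesoderm markers lay between -0.17 and 0.36 with LIF and between -0.14 and 1.08 without, and none of these markers was called. Of the ES cell markers Klf4 fell by 2.72 and Tcl1 by 1.66, and the mean of that list was 2.58 to 3.18 with LIF and 1.95 to 2.37 without. The trophoblast marker Gata3 rose by 1.15. Their part in the changes of the members was not tested. Axin2 lay between -0.07 and 0.11 in all 12 arrays of this experiment. Of the other pathway genes, Rspo1 (1 of 15 secreted modulators) rose by 0.69, Ror2 (1 of 8 further receptors) by 0.84 and Tnfrsf19 (1 of 8 known targets) by 1.15, and none of 12 cytoplasmic and 7 nuclear components was called, against 1.02% of all.

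RA was accompanied by a rise of Dkk1, Dkk3, Wnt2 and 4 Frizzled receptors and by a fall of Sfrp1. Against LIF, 8 of 40 members were called, 7 higher and 1 lower, against 5.86% of 37680 genes and unnamed probes. The median of the members was 0.05, against -0.01 over all genes. Receptors made up 4 of the 8, out of 10 receptors measured. For Fzd1, Fzd3 and Fzd6 only the brighter probe rose, and the mean over both probes did not reach the threshold, as given below. None of the 7 cytoplasmic and nuclear members was called.

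Dkk1 rose most. It read 0.72, 0.40, 0.38 and 0.27 with LIF and 3.18, 1.79, 2.88 and 2.21 with RA in the episomal clone, the integrated clone, MG1.19 and ES 129.3. The lowest RA array was above the highest LIF array, and the change was 2.07 ± 0.16 (SE, n = 4 lines, adjusted p = 0.000212, limma). Dkk3, a more distant member of the family with no settled action on LRP receptors, read -0.95, -0.70, -0.79 and -0.76 with LIF and 0.56, 0.32, 0.63 and 1.14 with RA. Its change was 1.46 ± 0.14 (SE, n = 4 lines, adjusted p = 0.000395, limma), and without LIF it stayed between -0.83 and -0.69. Sfrp1 read 1.32, 1.75, 1.70 and 0.83 with LIF and 0.60, 0.52, 0.98 and 0.79 with RA, so that the groups overlapped. It fell by 0.67 ± 0.18 (SE, n = 4 lines, adjusted p = 0.0381, limma), by 0.72, 1.23 and 0.71 in the episomal clone, the integrated clone and MG1.19 and by 0.03 in ES 129.3. This call did not pass with the Cy3 signal alone (adjusted p = 0.0559), with the correction for Cy5 bleaching (0.0765), or without the episomal clone, the integrated clone or MG1.19 (0.079 to 0.19). In all, it was lost under 10 of 14 alternatives.

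Fzd2 read -1.09, -1.22, -0.23 and 0.13 with LIF and 1.24, -0.24, 1.39 and 1.23 with RA, a change of 1.51 ± 0.21 (SE, n = 4 lines, adjusted p = 0.0023, limma). It rose in all 4 lines, but the RA array of the integrated clone lay below the LIF array of MG1.19. Wnt2, the only ligand called, read 0.06, -0.14, 0.15 and 0.47 with LIF and 1.62, 0.33, 1.33 and 1.28 with RA. It rose by 1.01 ± 0.16 (SE, n = 4 lines, adjusted p = 0.00419, limma) and by 0.47 to 1.56 in single lines. It did not pass without MG1.19 (adjusted p = 0.0549). Wnt6 was higher by 1.44, 1.87 and 0.93 in ES 129.3, MG1.19 and the episomal clone and lower by 0.18 in the integrated clone, and did not pass (adjusted p = 0.0653). Among the called members the RA change was smallest in the integrated clone for Dkk1, Dkk3, Fzd2, Fzd6 and Wnt2, smallest in MG1.19 for Fzd1 and Fzd3, and for Sfrp1 smallest in ES 129.3 and largest in the integrated clone. With RA the brighter Pou5f1 probe read 2.42 in the integrated clone and 0.49 to 0.82 in the other lines, so that array stands apart. Without this line 9 members were called and Sfrp1 was not, while Dkk1 changed by 2.30, Fzd2 by 1.69, Dkk3 by 1.61 and Wnt2 by 1.18.

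**Figure D3:**
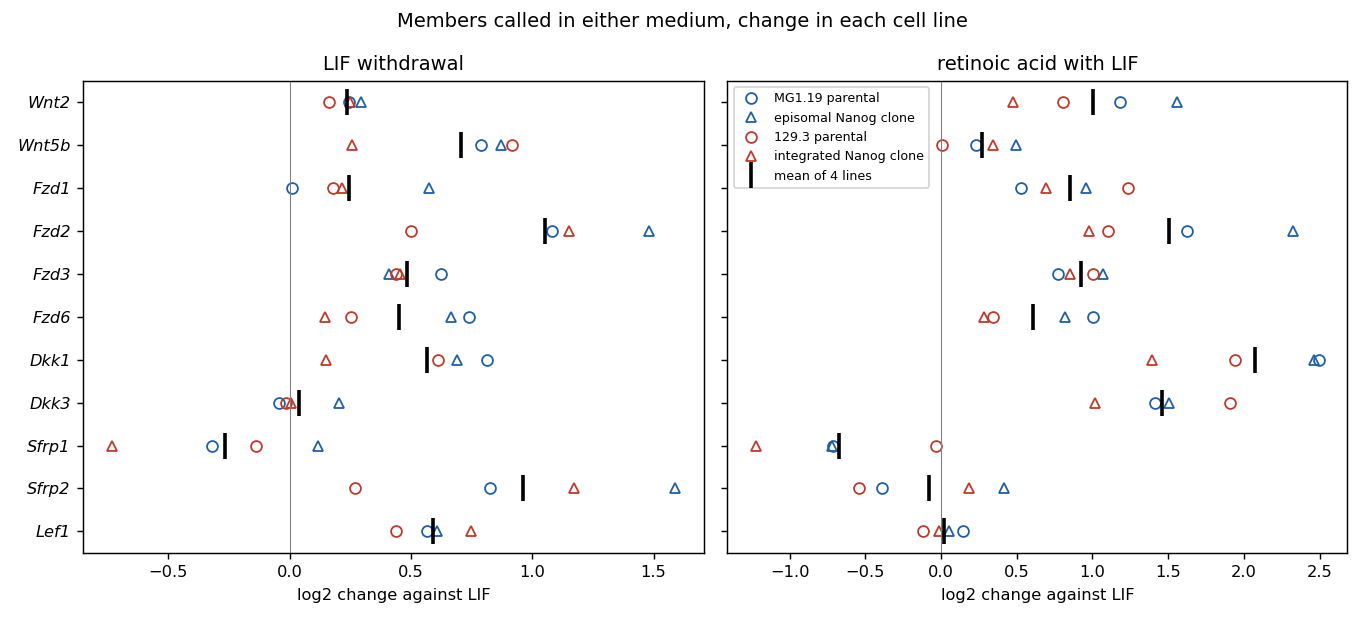
Log2 change against LIF of the 11 members called in either medium, on withdrawal of LIF (left) and with RA in complete medium (right). Blue symbols are MG1.19 and its episomal clone, red symbols ES 129.3 and its integrated clone, circles parental lines and triangles Nanog clones, and black bars mark the mean of 4 lines. Dkk1 and Dkk3 lie well to the right with RA, and Lef1 is higher on withdrawal of LIF (0.59) and at 0.02 with RA.

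The calls of Fzd1, Fzd3 and Fzd6 rest on 1 of 2 probes. In the episomal clone, the integrated clone, MG1.19 and ES 129.3 the brighter Fzd1 probe read -2.12, -2.24, -1.62 and -1.47 with LIF and -1.16, -1.55, -1.09 and -0.23 with RA. The brighter Fzd3 probe read -0.21, -0.53, 0.19 and 0.36 with LIF and 0.86, 0.32, 0.97 and 1.37 with RA. The brighter Fzd6 probe read -0.82, -0.56, -0.92 and -0.14 with LIF and -0.00, -0.28, 0.08 and 0.21 with RA. Each of these rose in every line, but for all 3 the RA array of the integrated clone lay below the LIF array of ES 129.3. With RA the brighter Fzd1 probe rose by 0.85 (adjusted p = 0.00281, limma) and the other changed by 0.00. The brighter Fzd3 probe rose by 0.93 (adjusted p = 0.000259, limma) and the other changed by 0.10. The brighter Fzd6 probe rose by 0.61 (adjusted p = 0.01, limma) and the other changed by -0.04. With the mean over both probes none of these 3 reached 1.5-fold (0.43, 0.51 and 0.29). Fzd6 did not pass without MG1.19 (0.48, adjusted p = 0.07) and, without the episomal clone, was at 0.54, under the 1.5-fold threshold. Lrp5 showed the reverse: its dimmer probe, the one that rose on the late arrays, rose by 0.67 on withdrawal of LIF (adjusted p = 0.0364, limma), and its brighter probe changed by 0.06. Wnt3 had 2 probes that moved together, by 1.26 and 0.84 without LIF. The 2 probes of Wnt2b moved together with RA, by 0.38 and 0.59, of which the dimmer passed (adjusted p = 0.0135, limma).

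**Figure D4:**
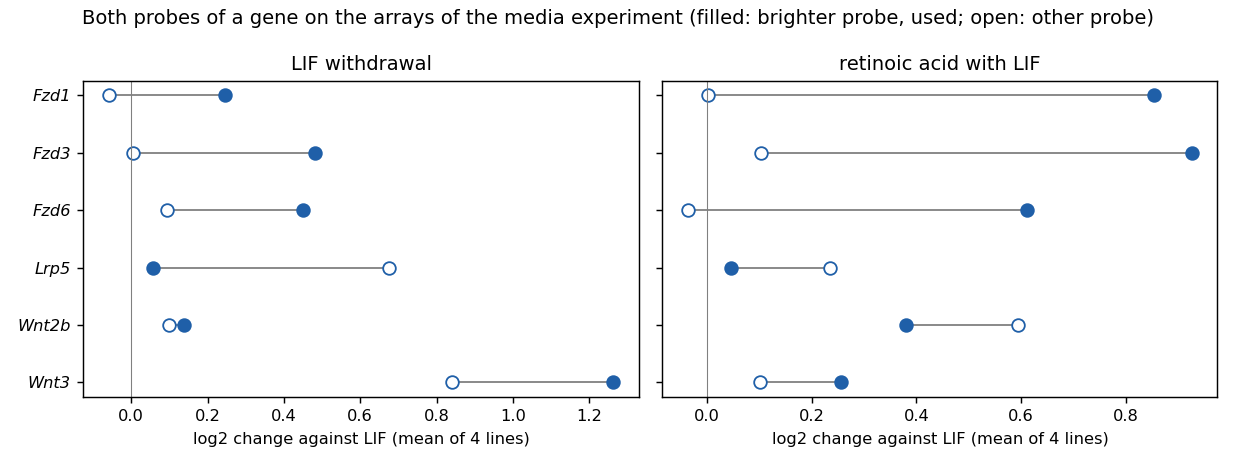
Log2 change against LIF, as a mean of 4 lines, for both probes of the 6 members with 2 probes on the arrays of the media experiment; filled circles are the brighter probe, which gives the value of the gene, and open circles the other. The probes of Fzd1, Fzd3 and Fzd6 part with RA, those of Lrp5 on withdrawal of LIF.

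RA was also compared with withdrawal of LIF, where 6 of 40 members were called, 4 higher and 2 lower, against 5.68% of 37680 genes and unnamed probes. It shares its RA arrays with the comparison of RA and LIF and its arrays without LIF with that of LIF withdrawal. Dkk1 (1.51 ± 0.16), Dkk3 (1.42 ± 0.14), Wnt2 (0.77 ± 0.16) and Fzd1 (0.61 ± 0.12) were higher with RA, and Sfrp2 (-1.05 ± 0.18) and Wnt3 (-1.01 ± 0.28) were lower (SE, n = 4 lines). Against LIF, RA changed Sfrp2 by -0.08 and Wnt3 by 0.26, and neither passed. Sfrp2 read -0.59, -0.99, -0.65 and -0.51 with RA. The adjusted p was 0.000778 for Dkk1, 0.00659 for Sfrp2 and 0.0472 for Wnt3 (limma). Without the integrated clone, MG1.19 or ES 129.3 that of Wnt3 rose to between 0.0822 and 0.195. Wnt2 did not pass without MG1.19 (0.117) or ES 129.3 (0.0648), nor Fzd1 without the integrated clone (0.0522) or MG1.19 (0.0558), and without ES 129.3 Fzd1 changed by 0.46, under the 1.5-fold threshold.

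With RA the markers of other cell types moved too. Of 8 primitive endoderm markers 5 rose, of 8 fibroblast markers 5 rose, of 13 trophoblast markers 7 rose, and of 8 ES cell markers 5 fell. The mean of the primitive endoderm markers was -0.70 to -0.60 with LIF and 0.18 to 1.09 with RA, and that of the fibroblast markers -2.36 to -1.95 and -1.93 to -0.97. Their part in the changes of Dkk1, Dkk3 and the receptors was not tested. The other pathway genes are set against 5.86% of all. Of 15 secreted modulators Wls rose by 1.75, and of 8 further receptors Ror2 rose by 1.21 and Ryk by 0.87. Of 12 cytoplasmic components Nkd1 rose by 1.35, Dact1 by 0.97 and the kinase Csnk1e by 0.81. Of 8 known targets Tnfrsf19 (1.69) and again Nkd1 rose, and of 7 nuclear components Tle4 fell by 1.14. The reference signal moved by 0.30 for Dkk1 and by 0.08 to 0.32 for the 7 other members called, and the Cy3 signal of Dkk1 rose by 2.37.

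Nanog clones were compared with their parental lines in 6 pairs of the same background and medium. None of 40 members was called, against 0.00531% of 37680 genes and unnamed probes, 2 in all (limma). At an unadjusted p under 0.05 there were 12 members, against 19.5% of all, and with the error variance of the methods none was called either, with 8 at that unadjusted p. Wnt3 differed by -1.02 (95% interval -1.58 to -0.45), Fzd2 by -0.83 (-1.24 to -0.42), Apc by -0.72 (-1.01 to -0.44), Fzd3 by -0.66 (-0.95 to -0.37) and Wnt5a by -0.60 (-0.91 to -0.29), with adjusted p of 0.0728 to 0.0977 (limma). With line and medium as additive terms over all 12 arrays these 5 members passed, with adjusted p of 0.00528 to 0.0386 (limma). The share of all genes that passed in that fit is not given here. The other probe of Fzd3 differed by 0.02 between clones and parental lines (adjusted p = 0.838), and that of Wnt3 by -0.66 (0.134).

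Those 5 members and Wnt2b were lower in the clone in 6 of 6 pairs, and Ctnnb1 was higher in 6 of 6. The share of all genes with the same direction in all 6 pairs was not counted, so these counts have no background. For Apc, a scaffold of the destruction complex, the difference was -0.56, -0.47 and -0.27 in the episomal pairs with LIF, without LIF and with RA, and -1.19, -1.03 and -0.82 in the integrated pairs. For Fzd2 it was -0.86, -0.46 and -0.15 in the episomal and -1.35, -0.70 and -1.47 in the integrated pairs. For Wnt3 it was -0.54, -0.92 and -0.04 in the episomal and -1.93, -1.70 and -0.96 in the integrated pairs. In Apc, Wnt3 and Fzd3 every integrated pair lay below every episomal pair, and the same held for Fzd1, Fzd6, Wnt2, Wnt5b and Dkk1. How many of all genes part in this way was not counted. The test of the difference between the clones called 0 of 40 members, against 0.823% of all, with 9 members at an unadjusted p under 0.05, against 12.6% of all (limma). For Apc that difference was 0.58 (adjusted p = 0.0974) and for Wnt3 1.03 (adjusted p = 0.217). Each clone is a single clone and the parental arrays come from an earlier experiment, so differences of the clone, its transgene and the experiment cannot be told apart. The intervals treat 6 pairs from 2 clones as independent. The sources name different parental lines for both clones, and the scans of each background were read by Feature Extraction on a different day.

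**Figure D5:**
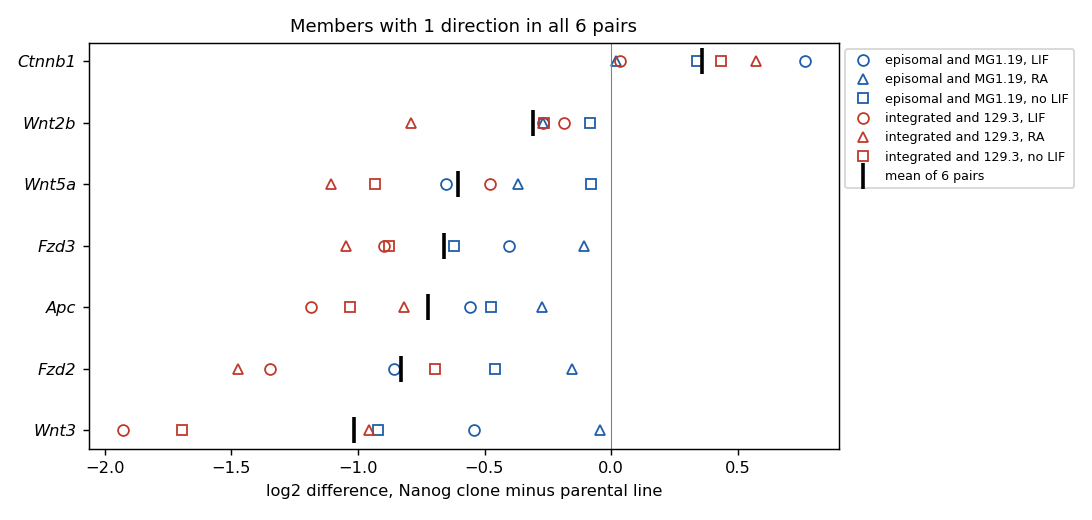
Log2 difference of each Nanog clone minus its parental line in the same medium for the 7 members with the same direction in all 6 pairs; blue is the episomal clone against MG1.19, red the integrated clone against ES 129.3, and black bars mark the mean of 6 pairs. Wnt3 spreads from -1.93 to -0.04, and none of these members passed the test.

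Between the parental lines, MG1.19 and ES 129.3, none of the 40 members was called, against 0.589% of 37680 genes and unnamed probes (limma), and 8 members had an unadjusted p under 0.05, against 13.4% of all. Sfrp1 was higher in MG1.19 by 0.58 (adjusted p = 0.259) and Fzd1 and Lef1 were lower by 0.44 (0.225) and 0.30 (0.104). With the error variance of the methods the count was 0 as well. Line, passage number (which differs between the 2 lines in the labels) and day of that reading of the scans cannot be told apart here.

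Some members had values short of a call. Fzd7, which fell on the late arrays, was higher by 0.69 without LIF and by 0.66 with RA in the 4 lines, but the lines spread widely and neither passed (adjusted p = 0.241 and 0.129, limma). Tcf7l1 differed by 0.52 without LIF (adjusted p = 0.405) and by 0.60 at its largest on the early arrays (0.524). Sfrp4, lower on the late arrays, differed by -0.55 with RA, with an adjusted p of 0.00381 (limma) but under the 1.5-fold threshold. On the early arrays Lef1 (-0.52 at 24 hr, adjusted p = 0.0305), Fzd10 (-0.47 at 24 hr, 0.0331) and Apc (-0.38 at 6 hr, 0.0237) likewise met the test over all times but not the fold. For Lef1 the second 24 hr array was at background, so its value is in part a bound. Apc turned within this experiment and was 0.31 above 0 hr at 24 hr. Fzd10, a Frizzled receptor, differed by -0.44 on the late arrays (adjusted p = 0.00115 over all times). At 72 hr its Cy3 signal rose by 0.48 and its Cy5 reference signal by 0.92, so this lower ratio lay in the reference channel. With RA, Wnt11, a ligand mostly linked to signalling without beta-catenin, differed by 0.52 (adjusted p = 0.0267, limma). On withdrawal of LIF the brighter Fzd3 probe differed by 0.48 (adjusted p = 0.0252, limma) and the other Fzd3 probe by 0.01 (0.977).

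Across these comparisons 21 of 40 members were called in none. Of the 37 members on all 3 array designs these were 18 (48.6%), against 52.6% of 11144 named genes on all 3, so the share lay near the background. They include 10 of the 15 ligands besides Axin2, Apc, Lrp6, Tcf7 and Tcf7l2, and for Dkk4 the Cy3 signal was above the negative control limit on 1 of 10 early and 6 of 12 media arrays. Dkk1 and Fzd2 were called higher both on the late arrays and with RA, and Sfrp1 was called lower in both and on the early arrays. Sfrp2 was lower in ZHBTc4 cells after Tet (-0.70 at 120 hr) and higher after withdrawal of LIF in the 4 lines (0.96), which are different lines on different arrays.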

How the data were processed

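The authors hybridised Cy3-labelled sample RNA with Cy5-labelled reference RNA on 60-mer arrays without dye swaps. The deposited scanner files hold spot intensity values from Feature Extraction, as mean signals and local background medians. The deposited value tables hold log10 values at the level of the Cy3 intensity, normalized by the authors with their own correction for Cy5 bleaching, and columns where the authors coded missing cells with a number were read as a score. These tables served only as an alternative.

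Scanner signals were background-corrected (normexp, offset 50) and normalized within arrays (loess) in limma 3.58.1 (R 4.3.3). Control spots and outlier spots were left out, saturated spots were kept, and spots of a probe were averaged. Each comparison was fitted with limma across all probes, and p-values were adjusted (Benjamini-Hochberg) over all genes and unnamed probes, with the brightest probe for a gene. A call needed an adjusted p under 0.05 and a 1.5-fold change. Over times the change given is the largest. The code was tested on simulated data. A probe was dim where its Cy3 signal was at or below the 95th percentile of negative controls. Probes were named by accession, by a probe of identical sequence on another design, or from the study's tables. The members and the gene lists were chosen with earlier results of these data known. Every member could be named, and values of single arrays were given mainly for members called over time or in a comparison of media. Arrays give no read depth, so their number limits the precision. The study's methods also use a larger error variance, tried as an alternative with other background, normalization and probe settings and with each array or line left out. For the late arrays the titles were followed, since their growth text names a different construct. For both Nanog clones the sources name different parental lines, and clone and parental line were paired by the strain in the labels.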

Additional observations from a re-analysis of the deposited data

Results flagged for a closer look

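In the 6 pairs of a Nanog clone and its parental line, Wnt2b in the integrated pair with RA differed by -0.789, apart from the other 5 pairs, which lay between -0.269 and -0.0841. Of 19 groups tested for such an outlying value, this was the one found, and chance gives about 1 in 20. The 24 hr change of Wnt3a differed between the experiments by 0.921 (0.257 on the late and -0.664 on the early arrays, adjusted p = 0.00113, limma). The late Wnt3a signal was at background on every 0 hr array, and on the early arrays the Cy5 reference signal rose by 0.52 and the Cy3 signal fell by 0.15. The 24 hr change of Wnt6 differed by 0.62 (0.578 and -0.0422, adjusted p = 0.0307, limma). Its Cy3 signal rose in both, by 0.53 on the late and 0.33 on the early arrays, and its Cy5 reference signal moved by -0.04 and 0.37.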

How the results depend on the processing

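The alternatives gave 610 values for results of members that were called with the main settings. Of these, 494 kept their direction and side of the threshold, 116 kept the direction but lost the call, and none reversed. A call gained under an alternative was not counted here. With no background subtraction the counts of members called were 2 on the late arrays over any time, 2 at 120 hr, 0 on the early arrays, 0 on withdrawal of LIF, 3 with RA against LIF and 2 with RA against no LIF. With a 2-fold threshold they were 2, 2, 0, 1 and 4 for the first 5 of these. With the error variance of the methods they were 0 early, 0 on withdrawal of LIF, 5 with RA against LIF and 2 with RA against no LIF. The early count was 4 with Feature Extraction processed signals, 7 with the authors' normalized values and 6 with the Cy3 signal alone. With the correction for Cy5 bleaching 1 member was called on withdrawal of LIF and 1 in the difference of the 24 hr changes. With the mean over probes 5 were called with RA, and with additive line and medium 5 in the clone comparison. Leaving out each array, line or pair in turn gave 8 to 11 members late over any time, 6 to 10 at 120 hr, 1 to 5 early, 0 to 3 on withdrawal of LIF, 5 to 9 with RA against LIF, 3 to 7 with RA against no LIF, 0 to 1 for the clones against parental lines (1 without the episomal pair with RA), 0 to 0 for the parental lines and for the difference between clones, and 1 to 5 for the difference of the 24 hr changes. The early count was 5 without the first and 1 without the second 24 hr array, RA against LIF fell to 5 without MG1.19, RA against no LIF to 3 without MG1.19 or ES 129.3, and the difference of the 24 hr changes rose to 5 without the first early 24 hr array and 4 without the third late one. Where these counts moved, the cause was not tested. The shares of all genes called under each alternative are not given beside them, so a move of the members alone cannot be read from these counts. Dkk1 on the late arrays (1.66 to 3.42 at 48 hr) and with RA (0.91 to 2.94), and Fzd2 with RA (0.97 to 1.69), passed under every alternative run for them. Sfrp1 on the late arrays lost its call only with no background subtraction (-0.56). Replicate numbers were not used to pair the arrays in the main fits. Deviations of same-numbered late arrays correlated at 0.15 on average over 45 pairs (-0.43 to 0.75), against -0.07 for differently numbered ones. For the early arrays the means were 0.11 over 20 pairs (-0.14 to 0.34) and -0.11, equal and opposite by construction with 2 arrays per time. These values do not settle whether the numbers pair the arrays. With the replicate number as a block the counts were 10 over any time, 8 at 120 hr and 2 early. Leaving out both 6 hr arrays, or the 3 and 6 hr arrays, an alternative added after seeing the data, left the early count at 2. A block for the day of Feature Extraction could not be fitted, since each day held all arrays of an experiment or of a background.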
